A study of Oryza sativa with 36 samples.

Results

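The m6A peaks of roots carrying FTOmut were set against those of wild-type roots, as a control for the FTO protein without its enzyme activity. The members were all peaks in the gene lists of FTOmut root replicates 1 and 2 and wild-type root replicates 1 and 2, 58387 of the 173074 peaks in the 12 gene lists of the series. Peaks of different lists were matched where their blocks overlapped on the same strand by at least 1 bp, which gave 19045 regions in 15054 genes. All plants were rice of the Nipponbare background, grown in Kimura B nutrient solution with 12 h of light at 26 °C and 12 h of darkness at 22 °C, and harvested at 15 days. FTOmut plants are labelled as a homogeneous transgenic line of an FTO variant whose demethylase activity is dead, FTO plants as a homogeneous transgenic line of FTO, and wild-type plants as Nipponbare with no transgene named. The labels give no promoter for the transgene, no number of lines and no number of plants behind a library, and the level of the transgene was not analysed here. Nothing in the labels says that replicates came from separate cultures, so the p-values measure only the spread between these samples.

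N6-methyladenosine (m6A) is a methyl mark on adenosines of messenger RNA. In plants it is written by a methyltransferase complex, lies mostly near the stop codon and in the 3′ untranslated region, and is read by proteins that bind it. FTO is an animal enzyme that oxidises the mark off RNA, and a variant without activity keeps the protein but not that reaction. In m6A-seq, fragments of poly(A) RNA are bound by an antibody against m6A and sequenced beside the input, taken without that step. A peak is a stretch where the immunoprecipitate exceeds the input. Its fold is that ratio. A fold per peak is relative within its own pair of libraries, so a change of the mark in all transcripts alike need not appear in it.

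FTOmut roots had about as many peaks as wild-type roots. The gene lists held 14854 and 14700 peaks in FTOmut root, against 14779 and 14054 in wild-type root. FTOmut replicates lay on either side of wild-type replicate 1, and wild-type replicate 2 was the lowest of the lists. The ratio of the group means was 1.03, a log2 ratio of 0.036 (exact permutation test over the 4 lists, two-sided, p = 0.667), and 2 lists against 2 cannot give a p under 0.333. Without wild-type replicate 2 the log2 ratio was -0.00020, so the direction rested on that list. Peaks lay in 12467 and 12494 genes in FTOmut root, against 12337 and 12065 in wild-type root, which is 13677 genes in either FTOmut list, 13509 in either wild-type list and 12132 in both genotypes. Genes with 2 or more peaks numbered 1640 and 1493 in FTOmut root, against 1969 and 1577 in wild-type root, and the groups overlapped. The depth of the m6A libraries is unknown, since the lists give no read counts.

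Most regions were shared. Of the 19045 regions, 10477 had a peak in all 4 lists, which is 55.0% (95% Wilson interval 54.3 to 55.7, counting error only). Another 806 regions, 4.23% (interval 3.96 to 4.53), had a peak in both FTOmut lists and in neither wild-type list, and are called FTOmut-only regions. A further 579, 3.04% (interval 2.81 to 3.29), had a peak in both wild-type lists and in neither FTOmut list, and are called wild-type-only regions. Regions found in a single list were more numerous than either class, with 2110 in FTOmut (1018 in replicate 1 and 1092 in replicate 2), against 1986 in wild type (1347 and 639). Of the 12426 regions that both FTOmut lists held, 84.3% were in both wild-type lists, 9.20% in 1 and 6.49% in neither. Of the 12002 regions that both wild-type lists held, 87.3% were in both FTOmut lists, 7.88% in 1 and 4.82% in neither.

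**Figure D1:**
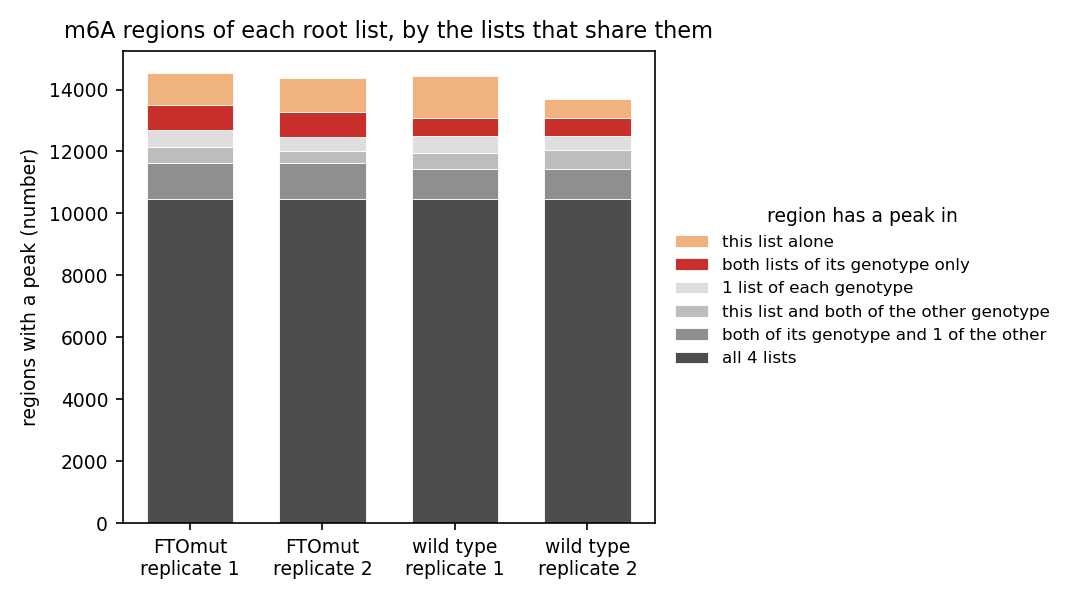
Number of regions with a peak in each root list (vertical axis), stacked by which of the 4 lists share them, FTOmut lists left of wild-type lists. The 10477 regions of all 4 lists make up most of every bar, while 806 regions in each FTOmut bar and 579 in each wild-type bar were found in both lists of that genotype only.

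Lists of the same genotype resembled each other slightly more than lists of different genotypes. The Jaccard index, the share of the regions of either list that both lists hold, was 75.4% between the FTOmut lists and 74.4% between the wild-type lists. Between genotypes it was 69.5% and 72.3% for FTOmut replicate 1 against wild-type replicates 1 and 2, and 67.7% and 71.8% for FTOmut replicate 2 against the same lists. The mean within genotypes exceeded the mean between them by 4.58 percentage points (exact permutation test, two-sided, p = 0.333, the smallest possible). The total of 1385 regions confined to both lists of 1 genotype was likewise the most extreme of the 6 arrangements of the lists into pairs (exact permutation p = 0.333). When a single list stood for a genotype that count grew by construction, and its split turned with wild-type replicate 2: without it, 1431 regions were FTOmut-only and 1926 wild-type-only, whereas without wild-type replicate 1 they were 1324 and 1218.

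The regions confined to 1 genotype were weak and narrow. The median fold was 13.3 in FTOmut-only regions and 13.04 in wild-type-only regions, against 38.3 in regions of all 4 lists. The median width was 156 nt in FTOmut-only regions and 165 nt in wild-type-only regions, against 259 nt in regions of all 4 lists. Regions of a single list lay lower again, with median folds of 10 and 11 in the FTOmut lists, against 9 in each wild-type list. A region that spanned more than 1 block, as a peak across an intron does, made up 4.96% of FTOmut-only and 10.5% of wild-type-only regions, against 6.10% of regions of all 4 lists. FTOmut-only regions lay in 705 genes, of which 465 (66.0%) had no wild-type peak anywhere. Wild-type-only regions lay in 560 genes, of which 341 (60.9%) had no FTOmut peak. The share of regions that were FTOmut-only ran between 3.25% on chromosome 3 and 5.83% on chromosome 4, and the share that were wild-type-only between 2.05% on chromosome 9 and 3.87% on chromosome 10.

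Among the strongest FTOmut-only regions was one in LOC_Os01g40250, at chr1:22728076-22728525 as the lists number it (no source used here names the genome build). Its fold was 309 and 88 in the FTOmut root lists, it was in neither wild-type root list, and it was in both wild-type shoot lists and both FTO root lists. A region in LOC_Os07g07560 at chr7:3779607-3779797 had folds of 153 and 87 in FTOmut root, and was also in both wild-type shoot and both FTO root lists. RNA of neither gene passed the test, with log2 fold changes of -0.32 and -0.30 (edgeR adjusted p = 0.167 and 0.166). The strongest wild-type-only region lay in LOC_Os07g45160 at chr7:26962477-26962727, with folds of 70 and 109, and the next in LOC_Os02g04970 at chr2:2345205-2345505, with 56 and 75. RNA of LOC_Os07g45160 was lower in FTOmut root, with a log2 fold change of -0.51 (edgeR adjusted p = 0.0278). That of LOC_Os02g04970 did not pass the test, with 0.039 (edgeR adjusted p = 0.880). Both regions had a peak in at least 1 FTO root list and 1 FTOmut shoot list. These 4 regions were thus also called outside the lists that defined them. The lists give no gene names for these identifiers.

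At the 10477 shared regions no difference in fold passed the test, 0.00% of the regions tested. The smallest adjusted p was 0.607 (limma with Benjamini-Hochberg adjustment over all shared regions), 499 regions (4.76%) were higher and 311 (2.97%) lower in FTOmut at an unadjusted p under 0.05, and no alternative fit called any. The median standard error of a log2 difference was 0.54, which gives a median half-width of the 95% interval of 1.28, more than a 2-fold change. Observed differences exceeded 2-fold at 1090 regions with the higher fold in FTOmut and at 690 with the lower. At 2570 regions both FTOmut folds exceeded both wild-type folds and at 1534 both were lower, together 39.2% of the shared regions. Such separation also arises in 2 of the 6 arrangements of lists that do not differ by genotype. When each list was centred on its own median, which by construction balances higher against lower regions, the split at an unadjusted p under 0.05 became 367 higher and 451 lower.

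The lists differed little in their median fold. The median fold at shared regions was 40.5 and 40.3 in FTOmut root, against 35.0 and 38.5 in wild-type root, and the groups did not overlap. On the log2 scale the medians were 5.34 and 5.33 in FTOmut root, against 5.13 and 5.27 in wild-type root, a difference of 0.14 or a ratio of 1.101 (exact permutation test, two-sided, p = 0.333, the smallest possible). The difference was 0.069 without wild-type replicate 1 and 0.21 without wild-type replicate 2. Over all peaks of each list it was 0.084, and the groups overlapped (exact permutation p = 0.667). The peaks at shared regions were 268 and 270 nt wide at the median in FTOmut root, against 260 and 260 nt in wild-type root. Across the 10477 regions the log2 folds of the FTOmut lists correlated with Pearson's r of 0.742 and those of the wild-type lists with 0.740, while lists of different genotypes gave 0.681 to 0.721. These are descriptions across regions that share libraries and antibody, and regions are not replicates. The SD between lists of 1 genotype was 0.65 on the log2 scale at a typical region.

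**Figure D2:**
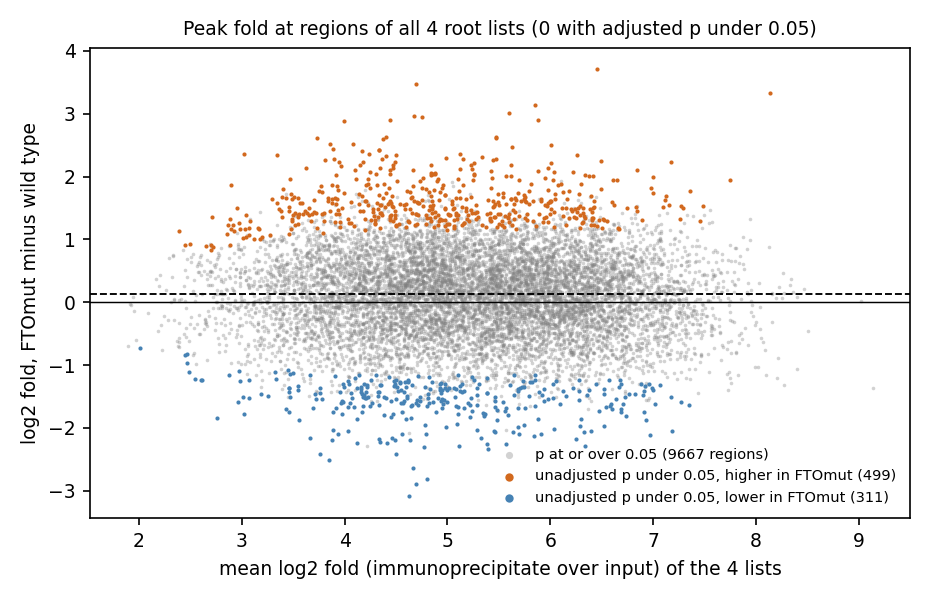
Difference of mean log2 fold between FTOmut and wild-type root (vertical axis) against the mean log2 fold of the 4 lists (horizontal axis), 1 point for each of the 10477 shared regions, with coloured points at an unadjusted p under 0.05 and a dashed line at the median difference of 0.13. The cloud is centred just above 0, with 499 points coloured above and 311 below, and none passed the adjusted threshold.

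The regions with the smallest p are given as values only. At chr2:34144030-34144169, a region the lists give to both LOC_Os02g55670 and LOC_Os02g55770, so that its gene is uncertain, the fold was 262 and 385 in FTOmut root, against 29.2 and 20.2 in wild-type root (log2 difference 3.71, SE 0.52, limma adjusted p = 0.607). At chr4:16031612-16032210 in LOC_Os04g27092 it was 74 and 100 in FTOmut root, against 6 and 10 in wild-type root. RNA of that gene was higher in FTOmut with a log2 fold change of 3.21 (edgeR adjusted p = 2.95e-07). It was low in wild-type root, at log2 CPM 0.39 and 0.098, against 3.46 and 3.39 in FTOmut root. In the other direction, a region of LOC_Os08g40919 at chr8:25890473-25890863 had folds of 8.94 and 8 in FTOmut root, against 81 and 64 in wild-type root. A region of LOC_Os09g39474 at chr9:22689411-22689610 had 10 and 11 in FTOmut root, against 75 and 73 in wild-type root. RNA of LOC_Os08g40919 was lower in FTOmut root, with a log2 fold change of -1.14 (edgeR adjusted p = 0.000331). That of LOC_Os02g55670 and LOC_Os09g39474 did not pass the test, with -0.053 and -0.82 (edgeR adjusted p = 0.819 and 0.0613). These 4 regions were picked for their small p among 10477 shared regions, a choice that by itself favours groups far apart compared with their spread. None passed the adjustment over all shared regions.

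The shoot lists and the FTO root lists, which did not define the classes, allowed a further look at the regions confined to 1 genotype of root. Both wild-type shoot lists held 36.97% of the FTOmut-only regions (95% Wilson interval 33.7 to 40.4), 14.2% of the wild-type-only regions (11.6 to 17.2) and 87.5% of the regions of all 4 root lists. These intervals cover counting error only, not the spread between libraries, and regions are not replicates. In these lists, wild-type shoot held a larger share of the regions that wild-type root lacked than of those that FTOmut root lacked. In both FTOmut shoot lists the shares were 45.2% of FTOmut-only and 14.3% of wild-type-only regions, and in both FTO shoot lists 43.4% and 19.2%. All 6 shoot lists together held 187 FTOmut-only regions (23.2%) and 38 wild-type-only regions (6.56%). None of the 6 held 135 of the FTOmut-only regions (16.7%), 261 of the wild-type-only regions (45.1%) and 1.36% of the regions of all 4 root lists. The order of both classes held in each of the 6 shoot lists, where FTOmut-only regions reached 44.5% to 62.4% and wild-type-only regions 20.4% to 34.4%. In FTO root the order differed between the replicates. Replicate 1 held 41.9% of FTOmut-only and 36.3% of wild-type-only regions, whereas replicate 2 held 49.8% and 61.3%.

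**Figure D3:**
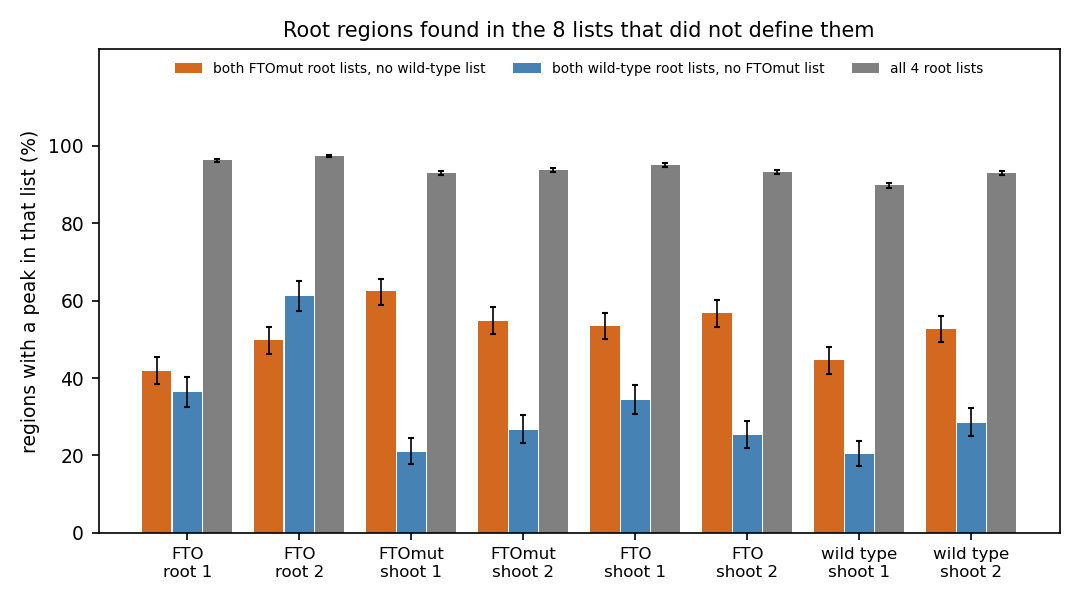
Share of root regions (vertical axis, %) that had a peak in each of the 8 gene lists that did not define them, for FTOmut-only regions, wild-type-only regions and regions of all 4 root lists, with 95% Wilson intervals (counting error only) as bars. FTOmut-only regions exceed wild-type-only regions in every shoot list (for example 62.4% and 20.9% in FTOmut shoot replicate 1), whereas in FTO root the order differs between the replicates.

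Green tissue was checked in the same root samples by 2 listed markers. Cab1R and Cab2R, which encode chlorophyll-binding proteins of the light-harvesting antenna and mark green tissue, had no m6A peak in any of the 4 root lists. RNA of both was higher in FTOmut than in wild-type root. Cab1R had log2 CPM (counts scaled to library size, prior count 0.5) of 7.63 and 7.03 in FTOmut root, against 5.05 and 5.30 in wild-type root (log2 fold change 2.18, edgeR adjusted p = 3.17e-06). Cab2R had 8.26 and 7.63 in FTOmut root, against 3.65 and 3.96 in wild-type root (4.17, adjusted p = 1.88e-08). Whether green tissue in the root samples had a part in the FTOmut-only regions was not tested, and in bulk tissue fewer cells of a type and less RNA per cell cannot be told apart.

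Where a gene also held a shared region, wild-type-only regions lay mostly upstream of it and FTOmut-only regions on either side. Such genes held 143 of the 806 FTOmut-only and 152 of the 579 wild-type-only regions. Among regions in genes that also held a region of all 4 lists, 42 of 143 FTOmut-only regions (29.4%) lay upstream of it and 75 (52.4%) downstream. Of 152 such wild-type-only regions, 137 (90.1%) lay upstream and 12 (7.89%) downstream. The median distance was 609 nt for FTOmut-only and 3149 nt for wild-type-only regions, counted along the genome with introns included. In these genes, then, wild-type-only regions were mostly further peaks toward the start of a transcript whose shared peak lay closer to its end.

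Further peaks were also counted in each list alone, and there lay mostly upstream in both genotypes. In 8080 genes, exactly 1 region was present in all 12 gene lists of the series, and further peaks of each list were placed against it. A further peak upstream was present in 6.65% and 5.14% of these genes in FTOmut root, against 10.5% and 7.35% in wild-type root. The groups did not overlap, but wild-type replicate 2 exceeded FTOmut replicate 1 by less than the replicates of either genotype differed. FTO root lists spanned both, with 5.69% and 10.3%. In shoot the shares were 2.43% and 4.08% in FTOmut, against 1.82% and 4.20% in wild type, so the groups overlapped. Further peaks downstream were rarer, at 1.30% and 1.47% in FTOmut root, against 0.941% and 0.978% in wild-type root, and at 1.36% and 1.29% in FTOmut shoot, against 1.08% and 1.11% in wild-type shoot. Library depth and RNA integrity of the m6A samples are not in the lists, and their part in these shares was not tested.

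**Figure D4:**
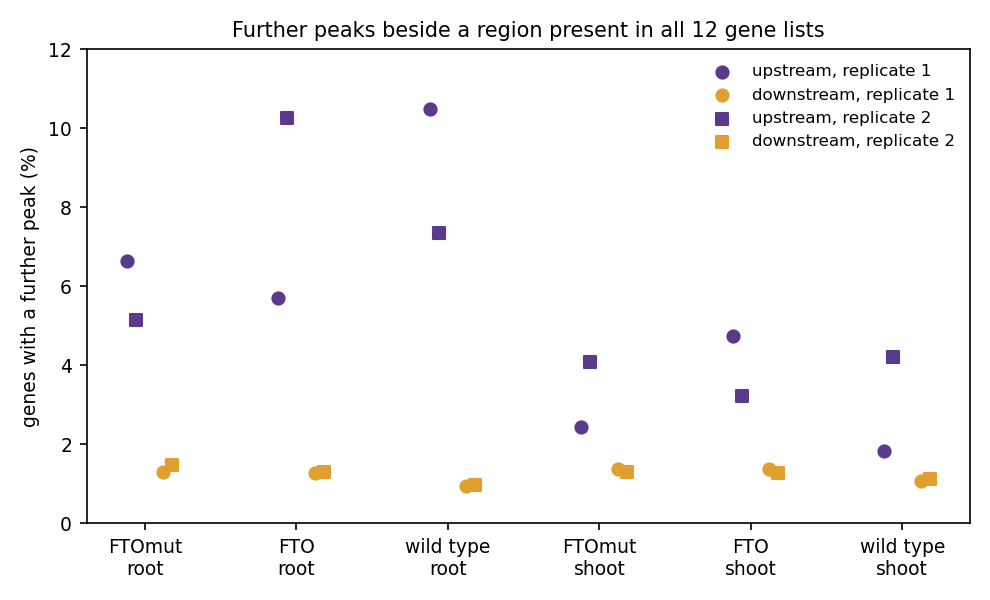
Share of 8080 genes (vertical axis, %) with a further peak upstream (purple) or downstream (yellow) of the region that all 12 gene lists hold, by genotype and tissue, with circles for replicate 1 and squares for replicate 2. The wild-type root lists, at 10.5% and 7.35%, lie above the FTOmut root lists, at 6.65% and 5.14%, and the FTO root lists span both.

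RNA-seq of the same genotypes and tissue, a readout that did not choose the peaks, was compared by class of peak. The 2 FTOmut libraries held 16.6 and 16.4 gene counts in units of 1e+06, against 13.4 and 16.0 in wild type, and FTOmut replicate 2 stood apart with 46275 genes at 10 or more counts, where the other root libraries had 23270 to 30283. Of 32467 genes tested, 10561 (32.5%) were higher and 9435 (29.1%) lower in FTOmut root (edgeR quasi-likelihood test, adjusted p under 0.05). Genes with a peak in any of the 4 lists leaned lower: 2405 of 14720 tested (16.3%) were higher and 6300 (42.8%) lower. Their median change was -0.46 on the log2 scale, beside 0.060 over all genes tested. Genes with a region of all 4 lists gave 1071 higher (11.01%) and 4758 lower (48.9%) of 9725 tested, with a median of -0.55.

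Genes with an FTOmut-only region leaned higher than other genes with a peak. Of 661 tested, 295 (44.6%) were higher and 136 (20.6%) lower in FTOmut root (61.6% of all genes tested were called in either direction). Their median change was 0.91 on the log2 scale. Genes with a wild-type-only region had 73 of 550 (13.3%) higher and 246 (44.7%) lower, with a median of -0.60, close to that of genes with a region of all 4 lists. Set against the mean of the wild-type libraries, the median of the FTOmut-only genes was 0.82 in FTOmut replicate 1 and 0.94 in replicate 2, so both libraries showed it. The FTO root libraries, which share the wild-type libraries as their reference, gave 0.58 and 0.44. At the median, FTOmut-only genes stood at 1.51 and 2.14 log2 CPM in FTOmut root, against 1.13 and 0.995 in wild-type root, while that of genes with a region of all 4 lists was 3.97 and 3.67 in FTOmut root, against 4.39 and 4.40 in wild-type root. Without FTOmut replicate 2 the FTOmut-only genes gave 256 higher and 134 lower with a median of 0.77. Without wild-type replicate 1 or 2 fewer genes were called in all, and the FTOmut-only genes gave 113 higher and 121 lower, or 119 and 122. Leaving out FTO replicate 1 or 2 gave 189 or 188 higher. The place of FTOmut-only genes above all genes tested was not stable, and the set of genes tested changed between fits. It held in the fits with 30517 to 32695 genes tested and not in those with 45242 to 55762. FTOmut-only genes gave 0.99 against 0.034 with only the 4 FTOmut and wild-type libraries, and 0.77 against 0.054 without FTOmut replicate 2. Their median lay below that of all genes tested without wild-type replicate 1 (0.76 against 0.95), wild-type replicate 2 (0.91 against 1.03), FTOmut replicate 1 (0.84 against 1.099), FTO replicate 1 (0.82 against 0.996) and FTO replicate 2 (0.81 against 0.98), and also with no filter on low counts (0.83 against 1.30). In all fits that left out 1 library, the median of FTOmut-only genes lay above that of genes with a peak in any of the 4 lists, which ranged from -0.91 to -0.35.

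**Figure D5:**
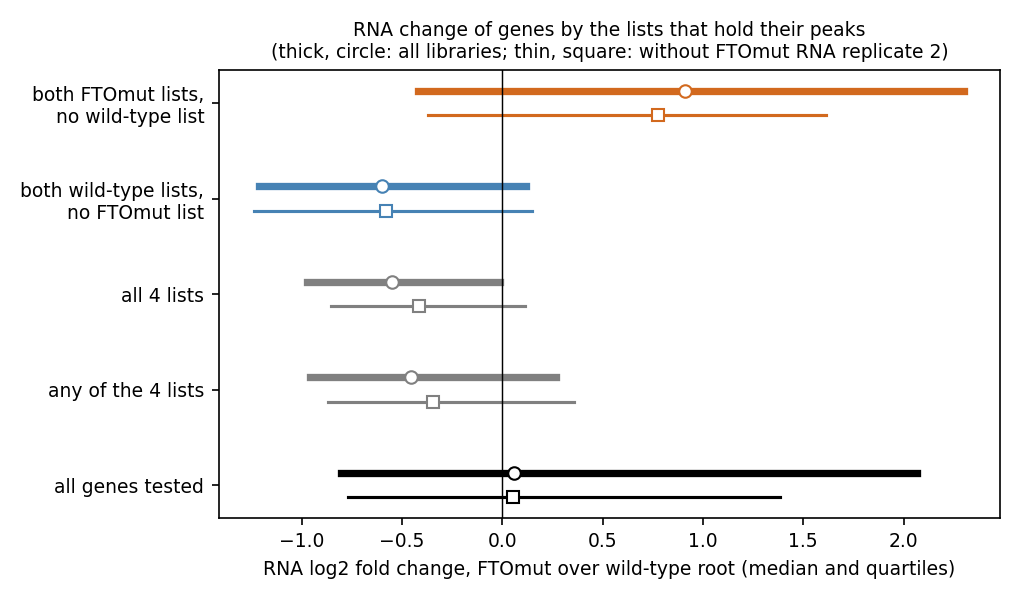
RNA log2 fold change of FTOmut over wild-type root (horizontal axis, median as a symbol and quartiles as the line) for genes by the lists that hold their peaks, with all libraries (thick line, circle) and without FTOmut RNA replicate 2 (thin line, square). Genes with an FTOmut-only region have a median of 0.91, against -0.60 for wild-type-only genes, -0.55 for genes with a region of all 4 lists and 0.060 for all genes tested.

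The higher RNA lay more in FTOmut-only genes where wild type had another peak in the gene, although that difference was not tested. FTOmut-only genes with a wild-type peak elsewhere gave 136 of 234 higher (58.1%) and 32 lower (13.7%), with a median of 1.59. Those with no wild-type peak gave 159 of 427 higher (37.2%) and 104 lower (24.4%), with a median of 0.52, which is near the 32.5% higher and 29.1% lower over all genes tested. Detection of a peak went with the RNA level in every list. In the fifth of tested genes with the lowest RNA, 5.61% and 5.50% had a peak in the FTOmut lists, against 4.68% and 4.43% in the wild-type lists. In the fifth with the highest RNA the shares were 63.2% and 62.5% in FTOmut, against 62.3% and 61.9% in wild type. Fold at shared regions did not follow RNA: across 10444 shared regions with RNA values, Pearson's r between the difference in log2 fold and the log2 fold change of RNA was 0.032, as a description across regions. The median fold difference was 0.11 in genes with RNA higher in FTOmut, 0.14 in genes with RNA lower and 0.12 in the others.

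Named genes came from lists of rice pathways with 89 members, of which 64 could be paired with a name. Peaks in all 4 lists were found in 22 of the 89, and 52 had no peak in any of the lists. Counted over the whole gene, a peak in both FTOmut lists and in no wild-type list was found in none. The reverse, here called a wild-type-only pattern, was found in 1. Among the 15054 genes with a peak in any list, 465 had an FTOmut-only region and no wild-type peak. In turn, 341 had a wild-type-only region and no FTOmut peak. Of all genes tested for RNA, 29.95% had a region of all 4 lists and 45.3% a peak in any of them. In RNA, 11 of the 83 members tested were higher and 37 lower in FTOmut root, beside 32.5% higher and 29.1% lower over all genes tested and 16.3% and 42.8% over genes with a peak. The lists were chosen with earlier results of these data known, so these counts are a description.

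Iron uptake genes had large changes of RNA and almost no peaks, where 45.3% of all genes tested for RNA had a peak in any of the 4 lists. Grasses take up iron with mugineic acids, made from nicotianamine. OsNAS1 and OsNAS2, nicotianamine synthases, OsNAAT1, the aminotransferase of the next step, and OsYSL15, the transporter of the iron complex, had no m6A peak in any of the 4 lists. Their RNA fell in FTOmut root, with log2 fold changes of -5.07, -5.14, -4.95 and -3.13 (edgeR adjusted p = 1.10e-09, 9.46e-10, 1.80e-09 and 3.76e-08). OsNAS1 stood at log2 CPM 5.24 and 5.28 in FTOmut root, against 10.2 and 10.4 in wild-type root, so RNA was plentiful in wild-type root, where it had no peak. OsNAS1 and OsNAS2 are close copies, and the authors' fractional counting may have split reads between them. OsIRT1, a ferrous iron transporter, was the only member of that list with a peak, at chr3:26286246-26286475. Its fold was 7.50 and 27 in FTOmut root, against 4.46 and 3.44 in wild-type root (log2 difference 1.86, SE 0.62, limma adjusted p = 0.607), while its RNA fell by 2.08 on the log2 scale (edgeR adjusted p = 7.07e-06).

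The 6 genes of diterpenoid phytoalexin synthesis, defence compounds made in clusters on chromosomes 2 and 4, had no peak in any of the lists. A peak in any of them was present in 45.3% of all genes tested for RNA. RNA of 5 of the 6 fell in FTOmut root, beside 29.1% of all genes tested. CYP99A2, a cytochrome P450, had a log2 fold change of -2.92 and OsCPS4, a diterpene cyclase, of -2.08 (edgeR adjusted p = 3.97e-08 and 4.12e-07).

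Among stress genes, OsDREB1A and OsLEA3 both lacked a peak in 1 FTOmut list while their RNA changed in opposite directions. OsDREB1A encodes a transcription factor of the cold response. Its region at chr9:20404014-20404243 had a fold of 9.83 in FTOmut replicate 1 and no peak in replicate 2, against 52 and 44 in wild-type root. Its RNA was at log2 CPM 8.05 and 7.89 in FTOmut root, against 1.48 and 2.07 in wild-type root (log2 fold change 6.17, edgeR adjusted p = 9.46e-10). OsLEA3 encodes a late embryogenesis abundant protein of drought and salt stress. Its region at chr5:26927766-26928095 had a fold of 10 in FTOmut replicate 1 and no peak in replicate 2, against 63 and 49.5 in wild-type root. Its RNA fell by 2.80 on the log2 scale (adjusted p = 2.22e-07). NH1, the rice counterpart of the defence regulator NPR1 of Arabidopsis, had a peak in all 4 lists at chr1:5060496-5060756, with folds of 46.4 and 51.0 in FTOmut root, against 19.8 and 34 in wild-type root (log2 difference 0.91, SE 0.52, limma adjusted p = 0.706). NCED3, an enzyme of abscisic acid synthesis, and OsNAC6, a stress transcription factor, had no peak in any list, and their RNA rose by log2 2.58 and 1.30 (edgeR adjusted p = 5.46e-07 and 0.000519).

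Of the 11 clock and flowering genes, 5 had a peak in all 4 lists and 5 had none. Over all genes tested for RNA, 29.95% had a region of all 4 lists and 45.3% a peak in any of them. OsLHY, a morning transcription factor, had folds of 149 and 142 in FTOmut root, against 100 and 181 in wild-type root. OsPRR37, a pseudo-response regulator, had 89.6 and 109 in FTOmut root, against 77.9 and 102 in wild-type root. OsGI, a regulator of flowering by day length, had 22.2 and 22.5 in FTOmut root, against 28.0 and 14.6 in wild-type root. In each of these 3 genes the FTOmut values lay within or across the wild-type range, and the log2 differences were between 0.11 and 0.15 (limma adjusted p of 0.955 to 0.967). OsPRR1, the rice counterpart of TOC1, held 2 regions of all 4 lists, with folds of 30 and 24 in FTOmut root, against 47 and 30 in wild-type root, at the first, and 9.09 and 11.3 in FTOmut root, against 9.57 and 15.1 in wild-type root, at the second. RNA of OsLHY fell by 1.14 on the log2 scale (edgeR adjusted p = 0.000130) while the difference in log2 fold of its peak was 0.11. OsELF3-1, a rice counterpart of ELF3, which belongs to the evening complex of the Arabidopsis clock, had a region of all 4 lists with folds of 55.5 and 16 in FTOmut root, against 104 and 27 in wild-type root (log2 difference -0.83, SE 0.85, limma adjusted p = 0.819). Its second region had a fold of 13 in FTOmut replicate 2 and no peak in replicate 1, against 5.55 and 15 in wild-type root. OsPRR95 had a peak with a fold of 163 in wild-type replicate 1 alone, beside RNA that fell by 2.45 (adjusted p = 3.04e-07).

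In gibberellin and strigolactone signalling, SLR1 was the gene with a wild-type-only pattern. SLR1 encodes the DELLA repressor of gibberellin responses, and its region at chr3:28512864-28513094 had folds of 32.5 and 14.8 in wild-type root and no peak in either FTOmut list. Its RNA did not pass the test (log2 CPM 6.59 and 6.01 in FTOmut root, against 6.06 and 6.00 in wild-type root, log2 fold change 0.30, edgeR adjusted p = 0.205). GID1, the gibberellin receptor that binds SLR1, held both of its regions in all 4 lists, with folds of 144 and 93.0 in FTOmut root, against 131 and 68.3 in wild-type root, at the stronger. D14, the strigolactone receptor, had folds of 37.3 and 23.5 in FTOmut root, against 20.1 and 79.0 in wild-type root. IPA1, a transcription factor of tillering and panicle branching, had 32.5 and 15.0 in FTOmut root, against 37.6 and 45.5 in wild-type root (log2 difference -0.91, SE 0.56, limma adjusted p = 0.721), and its RNA fell by 2.02 (edgeR adjusted p = 0.000101). BZR1, a transcription factor of brassinosteroid signalling, had a fold of 25 in FTOmut replicate 1 and no peak in replicate 2, against 121 and 26 in wild-type root.

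Of the 8 genes of DNA methylation and RNA silencing, 6 had a peak in all 4 lists, beside 29.95% of all genes tested for RNA. OsMET1b, a maintenance DNA methyltransferase, had folds of 118 and 99.5 in FTOmut root, against 105 and 93.0 in wild-type root. OsDRM2, a de novo DNA methyltransferase, had 22.6 and 32.0 in FTOmut root, against 32.4 and 50.8 in wild-type root, and OsCMT3a, a chromomethylase, had 27.5 and 36.0 in FTOmut root, against 50.0 and 47.0 in wild-type root. The Argonaute gene AGO1A had 70.1 and 74.5 in FTOmut root, against 86.1 and 75.7 in wild-type root. Its relative AGO4A had 53.9 and 81.3 in FTOmut root, against 87.5 and 105 in wild-type root. For 4 of these 6, OsDRM2, OsCMT3a, AGO1A and AGO4A, both FTOmut values lay below both wild-type values, as at 14.6% of all shared regions, by log2 differences of -0.59, -0.62, -0.16 and -0.53, with SEs of 0.48 to 0.52, and none passed the test (limma adjusted p of 0.773 to 0.949). OsRDR2, an RNA-dependent RNA polymerase, had weak peaks with folds of 10.7 and 5.33 in FTOmut root, against 5.50 in wild-type replicate 1 and no peak in replicate 2.

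Among transport genes, OsPHR2, the transcription factor of the phosphate starvation response, had folds of 106 and 144 in FTOmut root, against 65.7 and 95.4 in wild-type root (log2 difference 0.64, SE 0.52, limma adjusted p = 0.781), with RNA that did not pass the test (log2 fold change -0.11, edgeR adjusted p = 0.588). OsSPX1, which encodes an inhibitor of OsPHR2, had a region of all 4 lists with folds of 48.3 and 53 in FTOmut root, against 72.2 and 54.8 in wild-type root. It also had a second, wild-type-only region at chr6:23879306-23879686 with folds of 6.86 and 5.75, upstream of the shared one on the minus strand. Of the 18 members of the transport list, 6 had a peak in any list and 12 had none. Of all genes tested for RNA, 45.3% had a peak in any of the 4 lists. The secondary-wall cellulose synthase genes CESA4, CESA7 and CESA9 had peaks in single lists of either genotype, with folds of 4.80 to 20.7, apart from a CESA7 region with a fold of 6 in FTOmut replicate 1, against 10.8 and 7.67 in wild-type root. RNA of all 3 fell, by 0.97, 0.89 and 0.93 on the log2 scale (edgeR adjusted p = 0.00247, 0.00211 and 0.00383). Of the 8 members of their root and cell wall list, 5 were lower and 0 higher. The share lower was 29.1% over all genes tested and 42.8% over genes with a peak in any of the 4 lists.

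The other pairs of genotypes, which share lists with this one, are set beside it. FTO against wild-type root gave 556 FTO-only and 299 wild-type-only regions, 0 called differences of fold among 10543 shared regions (371 higher and 219 lower at an unadjusted p under 0.05) and a median log2 fold 0.12 higher in FTO. FTO against FTOmut root gave 510 FTO-only and 448 FTOmut-only regions, 0 called (264 higher and 294 lower at an unadjusted p under 0.05) and a difference of -0.031. FTOmut against wild-type shoot gave 577 FTOmut-only and 288 wild-type-only regions, 0 called (431 higher and 247 lower) and a difference of 0.072. All calls are limma's at an adjusted p under 0.05, and differences between these contrasts were not tested.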

How the data were processed

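The 8 m6A libraries behind the 4 root lists (immunoprecipitate and input of each replicate) were processed by the authors, who deposited 1 list of peaks in genes and 1 of peaks in repeats per replicate, called with MeTPeak per the labels. Per the file headers, the deposited lists give for each peak a fold (the ratio of immunoprecipitate to input), a log10 of the FDR, and a p-value in the score column. Between 48.1% and 53.4% of the folds under 100 in the root lists of FTOmut and wild type are whole numbers, so a fold can rest on few input reads. The deposited root RNA table holds expected counts for 55801 genes and 92 ERCC spike-in transcripts, not normalized, of which 20.8% of the nonzero values have a fraction; its gene length column, of an other unit, was not used. Per the submitters' processing notes the tools were cutadapt 1.15, HISAT2 2.1.0 and featureCounts of Subread 1.6.4; no source used here names the peak caller's settings or the genome build. The labels' protocols describe depletion of ribosomal RNA for RNA-seq and poly(A) selection for m6A-seq.

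Peaks were joined into regions with Python 3.11.15 and pandas 2.3.3. The fold of a region in a list is that of its peak, or the geometric mean where a list had several (94.7% of the shared regions had 1 peak in each list). Log2 fold was tested with limma 3.58.1 (trend, robust). Expected counts were rounded and tested with edgeR 4.0.16 (R 4.3.3, filterByExpr, TMM, all 6 root libraries); log2 CPM used a prior count of 0.5. Adjusted p-values are Benjamini-Hochberg over all regions or genes tested, at 0.05, two-sided, with no minimum fold. SD and SE are over lists or libraries. Shares carry 95% Wilson intervals, which cover counting error only. Both fits were tested on simulated data. Alternatives were other overlap rules, stricter FDR and fold, centring, all 6 root lists, a replicate block, DESeq2 1.42.0, other scaling and filters, and leaving out each replicate.

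The members and lists were chosen with earlier results of these data known. Named genes are those of the gene lists whose identifier could be paired with a symbol by chromosome and order, since the reference table matched 0 identifiers; others are given by identifier, up to 2 in each direction, by smallest p for fold and by largest lower fold for presence. No sequence is printed, as no genome was used here.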

Additional observations from a re-analysis of the deposited data

Results flagged for a closer look

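Peaks in repeats lie outside the comparisons of genes above and were more numerous in FTOmut root. The repeat lists held 5541 and 6103 peaks in FTOmut root, against 3879 and 4127 in wild-type root, a ratio of 1.45, and the groups did not overlap (exact permutation test over the 4 lists, two-sided, p = 0.333, the smallest possible). FTO root, with 5550 and 4881 repeat peaks, also exceeded both wild-type lists. The peaks fell in 1049 and 1162 repeats in FTOmut root, against 867 and 929 in wild-type root. Their median folds were 16 and 17 in FTOmut root, against 17 and 19 in wild-type root.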

How the results depend on the processing

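Of 114 alternative values, 83 kept their direction or, for counts and class medians, stayed near the main value. Some of the alternatives changed nothing, so this count overstates how much was varied. The smallest fold in the 4 lists was 2.55, so a fold of at least 2 removed no peak. Overlap of spans gave the same 19045 regions. Sizes still varied: the log2 ratio of peak numbers was 0.54 for the repeat lists, and the difference in median log2 fold was 0.069 to 0.21 as lists were left out. The log2 ratio of peak numbers turned to -0.00020 without wild-type replicate 2, and leaving out each replicate gave -0.00020 to 0.072. With 1 list in place of a pair, the regions confined to 1 genotype numbered 2542 to 3357, of which 1324 to 1898 FTOmut-only and 986 to 1926 wild-type-only. A fold of at least 10, chosen after seeing the data, gave 730 and 482 regions. No fit called a fold at shared regions. Genes called in RNA ranged from 12371 to 33821 as replicates were left out, of 32695 to 46255 tested; the cause was not tested. As each FTOmut, wild-type or FTO library was left out (the last chosen after seeing the data), the median RNA change ranged from 0.76 to 0.91 for FTOmut-only genes, from -1.03 to -0.58 for wild-type-only genes and from -1.04 to -0.42 for genes of all 4 lists; the median of all genes tested ranged from 0.054 to 1.099.

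Replicate numbers are shared by both genotypes, but the labels do not say what they mark. Deviations of replicate 1 from its genotype mean correlated between genotypes by 0.020 in log2 fold across 10477 regions. In RNA they correlated by 0.142 across 32467 genes. With 2 replicates a genotype, the deviation of replicate 2 only mirrors that of replicate 1. No pairing was assumed. With a replicate block, 0 regions were called for fold (520 higher and 349 lower at an unadjusted p under 0.05; 380 and 534 when centred), 19903 genes were called for RNA, and the median RNA change was 0.89, -0.59 and -0.55 for FTOmut-only genes, wild-type-only genes and genes of all 4 lists.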
